A study of Mus musculus with 12 samples.

Results

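The genes of the cytosolic ribosomal proteins were followed in mouse liver during concanavalin A (ConA) hepatitis, an acute liver injury driven by activated T cells. They were taken as the genes whose only symbol on the array began with Rpl or Rps followed by a number, with Rpsa and the stalk proteins Rplp0 and Rplp2 and without the Rps6k kinases, and 51 of the 18193 genes measured met this rule. Each gene was read from the probe set with the highest mean signal over all arrays. The 12 arrays carried whole liver RNA of male Balb/c mice of 8 to 10 weeks, 3 arrays at each of 4 times. The ConA groups were sampled after 20 mg/kg ConA into the tail vein, with 1 h, 3 h or 6 h in between, and the control group at 0 h. The sample records label the control group untreated, while PBS is named in the methods. The labels number 3 samples per time and extraction was from each mouse, while no source says whether the arrays were run together. Controls existed at 0 h only, so ConA and the passing of time cannot be told apart.

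Ribosomal proteins form the 2 subunits of the cytosolic ribosome, the small one (Rps genes) that decodes the mRNA and the large one (Rpl genes) that joins the amino acids. They are made in nearly equal numbers, and most of their mRNAs start with a run of pyrimidines, the 5′ TOP sequence, through which the growth-sensing kinase mTOR controls their translation. New subunits are put together in the nucleolus by assembly factors and small nucleolar RNAs that do not stay in the finished ribosome, and in the liver this machinery is known to be switched on when hepatocytes prepare to divide.

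The bases around the annotated start were read from the RefSeq promoter table (mouse build GRCm38.p6), which held 44 of the 51 genes. An unbroken run of 8 or more C or T on the gene's strand, within the 30 bases centred on the start, was present in 19 of these 44 genes (43.2%), against 2 of 35 ribosome assembly and nucleolar factors (5.71%), 9 of 67 mitochondrial ribosomal protein genes (13.4%) and 13.9% of the 27025 genes in the table. The runs of 6 genes with bright probe sets are shown in capitals, 5′ to 3′ on the gene's strand, because this kind of start was more frequent in the family than in the table as a whole.
Rpl7a, chr2:26910792-26910821, plus strand: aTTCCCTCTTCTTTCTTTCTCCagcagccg
Rpl35, chr2:39005117-39005146, minus strand: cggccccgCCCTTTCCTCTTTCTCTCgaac
Rps10, chr17:27635230-27635259, minus strand: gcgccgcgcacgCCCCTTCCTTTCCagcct
Rps18, chr17:33955651-33955680, minus strand: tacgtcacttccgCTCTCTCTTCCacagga
Rps9, chr7:3704026-3704055, plus strand: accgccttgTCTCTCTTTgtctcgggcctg
Rpl22l1, chr3:28805493-28805522, plus strand: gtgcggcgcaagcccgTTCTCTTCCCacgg

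Among the genes called higher at 6 h, 3 were in the table, and none of these carried a run of that length in this window. Their starts are shown for comparison. The longest run was 7 bases in Rpl12, 7 in Rps25 and 2 in Rpl7l1. Over the ribosomal protein genes in the table the median longest run was 7, against 5 over all genes in it.
Rpl12, chr2:32961697-32961726, plus strand: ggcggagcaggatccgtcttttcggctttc
Rps25, chr9:44407699-44407728, plus strand: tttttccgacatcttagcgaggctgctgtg
Rpl7l1, chr17:46782642-46782671, minus strand: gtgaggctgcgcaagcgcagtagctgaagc

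Other short motifs were counted over all 300 bases of the table, which run from 250 before the start to 50 after it. On either strand, CCGGAAG, the core bound by Ets family factors, was in 21 of the 44 ribosomal protein genes (47.7%), against 12 of 35 assembly factors (34.3%), 37.3% of mitochondrial ribosomal protein genes and 9.93% of all genes. CACGTG, the E-box bound by Myc and related factors and its own reverse complement, was in 4 of the 44 (9.09%), against 8 of 35 assembly factors (22.9%) and 8.09% of all genes. AAGATGGC on either strand was in 9.09% of the ribosomal protein genes, against 17.9% of mitochondrial ribosomal protein genes and 3.19% of all genes. It was in 0 of 35 assembly factors. TATAAA on the gene's strand was in 11.4% of the ribosomal protein genes and 9.77% of all genes. These are letter matches, and binding was not measured. Some genes carried both the E-box and a run of 8 or more C or T at a start. Among them were Rpl13a (13 bases), Rpl14 (14), Rpl19 (11) and the assembly factor Nop2 (8). The E-box, in capitals, is shown for 3 assembly factors whose mRNA rose at 6 h, and all 3 sites lie after the annotated start.
Ltv1, chr10:13193092-13193121, minus strand: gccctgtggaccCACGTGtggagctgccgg
Tsr1, chr11:74898092-74898121, plus strand: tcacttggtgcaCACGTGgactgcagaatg
Wdr43, chr17:71616220-71616249, plus strand: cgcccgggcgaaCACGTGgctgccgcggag

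The arrays' own scale moved with time and with the level of a signal. The median signal of all probes was between 13.6 and 20.4 per array, and the lowest 3 values of the median gene belonged to the 3 h group. As deposited, the median log2 change of all genes was 0.08 at 1 h, -0.21 at 3 h and 0.02 at 6 h against control, and after quantile normalization, which gives all arrays the same distribution, it was -0.02, -0.05 and -0.03. Hepatocyte markers were bright at all times, with a summed signal of 95587 to 103825 at 6 h, against 92644 to 98784 in the control group, and 1 of 11 was called higher (Fgb) and 0 lower. Neutrophil markers had sums of 1572 to 2423 at 6 h, against 70.2 to 121 in the control group, and 7 of 7 were called higher. They were up already at 1 h, with sums of 814 to 1175 and 5 of 7 called, against 1.5% of all genes called higher. The summed Kupffer cell and macrophage markers were 1197 to 1574 at 6 h, against 1876 to 2536 in the control group. The counts higher and lower at 6 h were 2 and 3 of 8 for these, 3 and 0 of 7 for T cell, 0 and 0 of 6 for B cell, 2 and 3 of 7 for sinusoidal endothelial cell and 0 and 0 of 3 for erythroid markers. Of all genes, 15.4% were called higher and 12.7% lower at 6 h. In whole liver, a change in the number of cells of a type and a change in RNA per cell cannot be told apart.

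The ribosomal protein genes fell into 36 with bright probe sets, with mean log2 signals of 10.65 to 13.00, and 15 with dim ones, at 1.61 to 8.46, a split drawn at 10 with the values known. The bright genes, 18 of the small and 18 of the large subunit, had signals of 1228 to 9281 on every array, and their median SD over the 3 control arrays was 0.06 on the log2 scale. Of the 15 dim genes, 9 are also listed on probe sets that carry several symbols, which were kept apart. A further 27 ribosomal protein symbols, among them Rpl5, Rpl26 and Rplp1, occurred on such probe sets only and were not analysed as genes of their own.

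The signals read for the bright ribosomal protein genes stayed close to their control level at every time. Whether each bright probe set reads the mRNA of 1 gene alone was not tested, and dim probe sets of some of these genes rose, as given below. Their log2 change lay between -0.18 and 0.21 at 1 h (median 0.04), between -0.28 and -0.0036 at 3 h (median -0.14) and between -0.02 and 0.39 at 6 h (median 0.13), with a median SE of 0.10. Only Rps20 of the 36 passed the test at any time against control (limma, adjusted p under 0.05 over all genes). Among the 874 other genes of the 5% with the highest signals, 188 were higher and 259 lower at 6 h. Of all genes, 15.4% were higher and 12.7% lower at that time. An F test over the 4 times called 8 of the 36 (22.2%) and 12 of all 51 (23.5%), against 489 of those 874 genes (55.9%), 33 of 42 assembly factors (78.6%) and 38% of all genes.

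**Figure D1:**
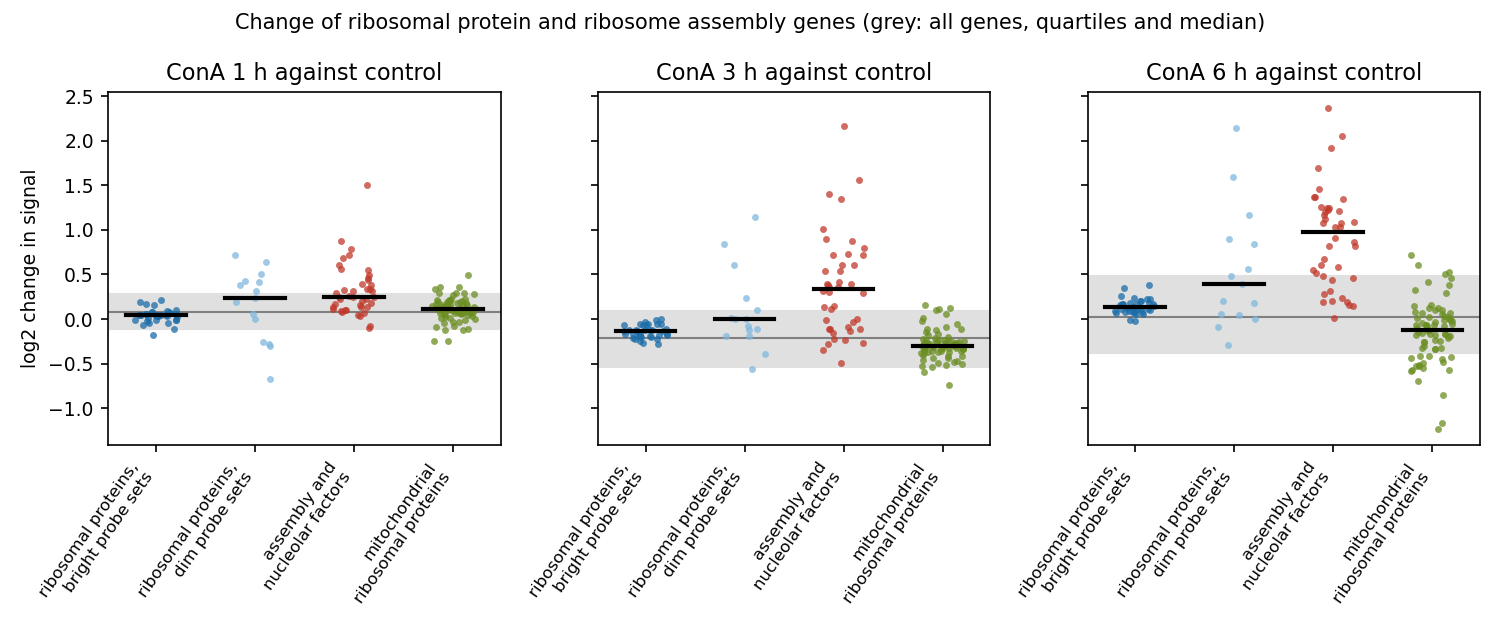
Log2 change in signal against control at each of the 3 ConA times, as deposited, for each ribosomal protein gene with a bright or a dim probe set, each assembly or nucleolar factor and each mitochondrial ribosomal protein gene; black bars are medians, and the grey band and line are the quartiles and median of all genes. At 6 h the bright ribosomal protein genes lie between -0.02 and 0.39, while the assembly factors have a median of 0.97.

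At 1 h, 0 of the 51 genes were called higher and 0 lower by limma, against 1.5% and 0.148% of all genes. In the 3 h group 2 of 51 were higher, Rpl12 and Rps25, and 0 lower, against 5.15% and 14.7% of all genes. After 6 h 4 of 51 were higher, Rpl12, Rps25, Rpl7l1 and Rps20, and 0 lower, against 15.4% and 12.7%. With quantile normalization the counts were 2 higher and 1 lower (Rps7) at 3 h, against 7.96% and 9.06% of all genes, and 5 higher (also Rpl22l1) and 0 lower at 6 h, against 14.2% and 17.7%.

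How many of the bright genes rose or fell depended on how the arrays were scaled. The median signal of the bright genes was 3160, 3259 and 3266 on the control arrays, 3659, 3264 and 3051 at 1 h, 2970, 3053 and 2830 at 3 h, then 3498, 3640 and 3628 at 6 h. The 3 arrays at 3 h were thus below, and the 3 at 6 h above, every control array, while the arrays at 1 h lay on both sides, with replicate 1 the highest of all 12. All 36 bright genes had a negative change at 3 h as deposited, but 8 were positive after quantile normalization and 15 after scaling to the median of the other genes among the brightest 5%. At 6 h, 34 of 36 were positive as deposited, 24 after quantile normalization and 36 after scaling to the brightest genes. With that last reference, the bright genes stood 0.88, 0.82 and 0.96 log2 units above the other bright genes at 6 h, against 0.61, 0.64 and 0.74 in the control group, so these arrays did not overlap. After quantile normalization they did, with median log2 signals of 11.73, 11.70 and 11.79 at 6 h, against 11.64, 11.70 and 11.74.

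**Figure D2:**
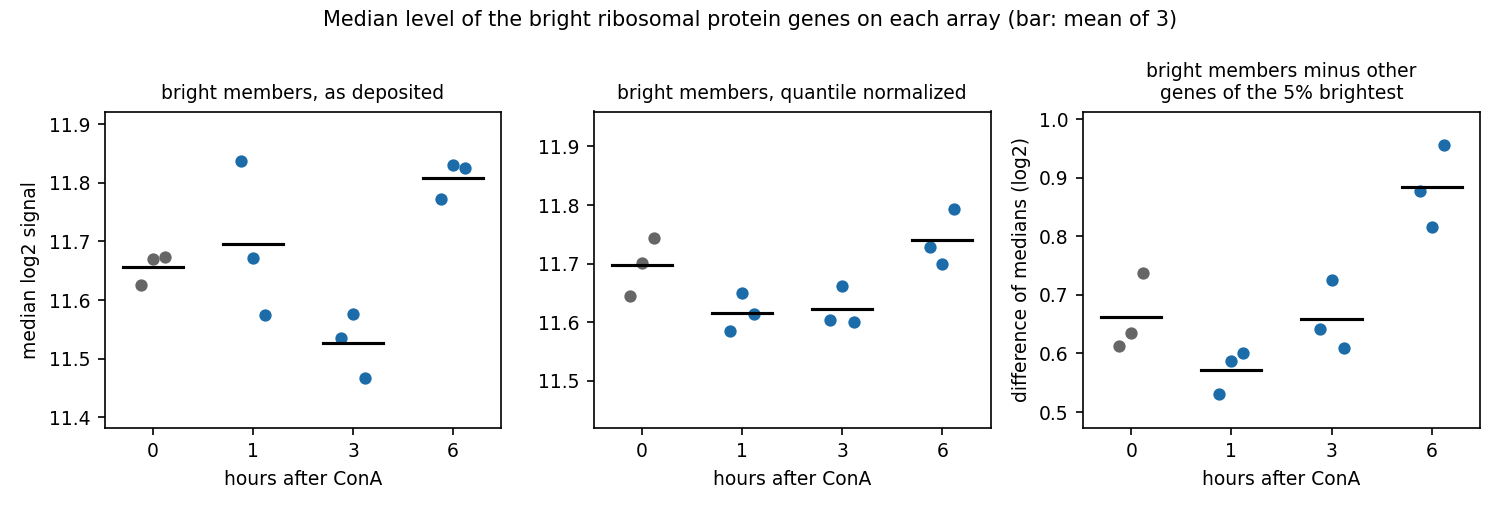
Median log2 signal of the 36 bright ribosomal protein genes on each array, as deposited, after quantile normalization, and as the difference from the median of the 874 other genes among the brightest 5%, by hours after ConA (grey, control; blue, ConA; bar, mean of 3 arrays). As deposited the 3 h arrays are lowest and the 6 h arrays highest by mean, and after quantile normalization the 6 h arrays overlap the control arrays.

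Between 3 h and 6 h the difference was wider than against control. From the deposited signals, 19 of 51 genes were higher at 6 h than at 3 h and 0 lower, against 18.8% and 3.83% of all genes, and 16 of the 19 were bright genes, with changes of 0.10 to 0.60 over all 36. Quantile normalization left 5 higher, of which 4 (Rpl12, Rpl22l1, Rps20 and Rps4x) were among the 19, and 1 lower, Rpl27a, against 9.34% and 10.3%. Leaving out 1 array took the 19 to 9 without 3 h replicate 1, 6 without 3 h replicate 3, 10 without 6 h replicate 1, 5 without 6 h replicate 2 and 9 without 6 h replicate 3. From 1 h to 3 h, 0 of 51 were higher and 2 lower (Rplp0 and Rps9), against 3.08% and 19.9% of all genes. Neither of the 2 was called with quantile normalization, where 1 gene, Rpl12, was higher and 0 lower, against 5.52% and 5.38%, and leaving out 1 array gave 0 lower without 3 h replicate 3 and 7 without 1 h replicate 3.

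**Figure D3:**
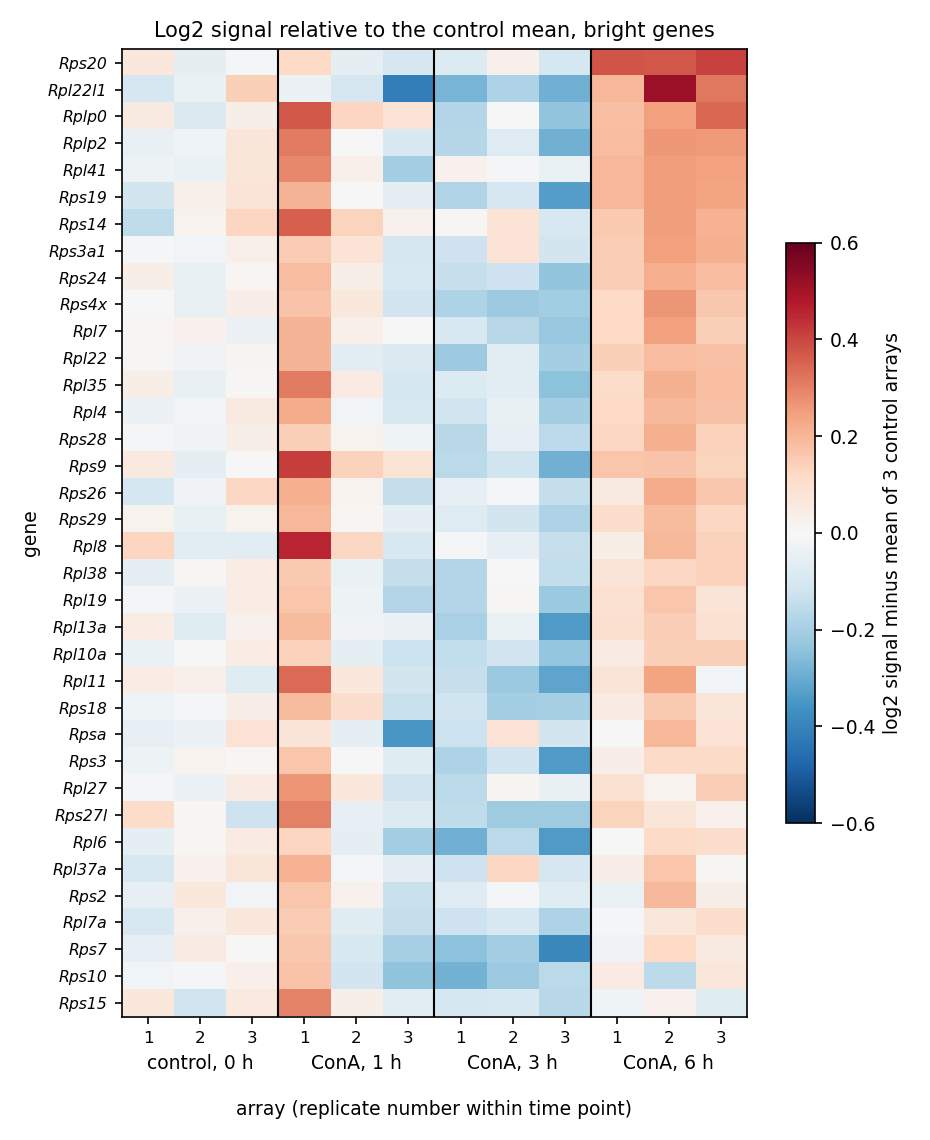
Log2 signal of each bright ribosomal protein gene on each array relative to the mean of the 3 control arrays, as deposited, with genes ordered by their mean at 6 h and arrays by time and replicate number. Most genes of an array share one shade, as on 1 h replicate 1 (-0.03 to 0.46) and 3 h replicate 3 (-0.39 to -0.04), and Rps20 and Rpl22l1 head the 6 h group.

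Rps20, a small subunit protein, was the one bright gene called against control. Its signal was 3826, 3534 and 3644 in the control group, 3977, 3526 and 3419 at 1 h, 3459, 3741 and 3412 at 3 h, then 4762, 4749 and 4873 at 6 h. The first 3 times overlapped and the 6 h arrays stood above all 9 others. It rose 1.31-fold at 6 h (log2 change 0.39, SE 0.08, adjusted p = 0.00624), and 0.25 with quantile normalization (adjusted p = 0.0212). A second bright probe set of Rps20 gave 0.41 (adjusted p = 0.0316 over all probe sets). Its dim probe sets gave 0.69 (adjusted p = 0.0906) and -0.13 (adjusted p = 0.931), neither of them called.

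Rpl12, whose protein sits at the base of the large subunit's stalk, showed the greatest rise of the family. Its signal was 22.4, 26.8 and 28.9 in the control group, 47.9, 49.0 and 32.6 at 1 h, 50.8, 60.2 and 61.9 at 3 h, then 135, 105 and 105 at 6 h. No ConA array overlapped the controls at any time. The rise was 2.22-fold at 3 h (log2 change 1.15, SE 0.18, adjusted p = 0.00268) and 4.41-fold at 6 h (2.14, SE 0.18, adjusted p = 4.39e-05), and at 1 h the change of 0.71 did not pass (adjusted p = 0.121). These values come from a dim probe set. A pair of bright probe sets that list Rpl12 beside other symbols, with mean log2 signals of 10.90 and 11.35, changed by 0.31 (adjusted p = 0.18) and 0.33 (adjusted p = 0.0266) at 6 h.

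Rps25, a small subunit protein needed for initiation at some viral internal ribosome entry sites, had a similar course. It measured 29.1, 27.9 and 28.4 in the control group, 38.7, 47.1 and 48.3 at 1 h, 46.2, 59.7 and 48.4 at 3 h, then 93.5, 104 and 65.1 at 6 h, again with every ConA array above the controls. The rise was 1.80-fold at 3 h (0.84, SE 0.18, adjusted p = 0.0101) and 3.01-fold at 6 h (1.59, SE 0.18, adjusted p = 0.000188). Its probe set was dim too, and the bright one that lists Rps25 with other symbols changed by 0.14 at 6 h (adjusted p = 0.44).

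Rpl7l1, an RPL7-like protein known in human cells as a factor of the maturing large subunit, had signals of 481, 566 and 405 at 6 h, against 299, 232 and 275 in the control group. At 1 h it measured 385, 372 and 327 and at 3 h 298, 339 and 309, so the 3 h arrays alone touched the control range. It rose 1.79-fold at 6 h (0.84, SE 0.14, adjusted p = 0.00192). The other 2 probe sets of the gene gave 0.48 (adjusted p = 0.099) and 0.35 (adjusted p = 0.134). Rpl7 itself, its paralogue in the mature ribosome, measured 3168, 3458 and 3218 at 6 h, against 2941, 2966 and 2845, a change of 0.17 that did not pass (adjusted p = 0.172).

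**Figure D4:**
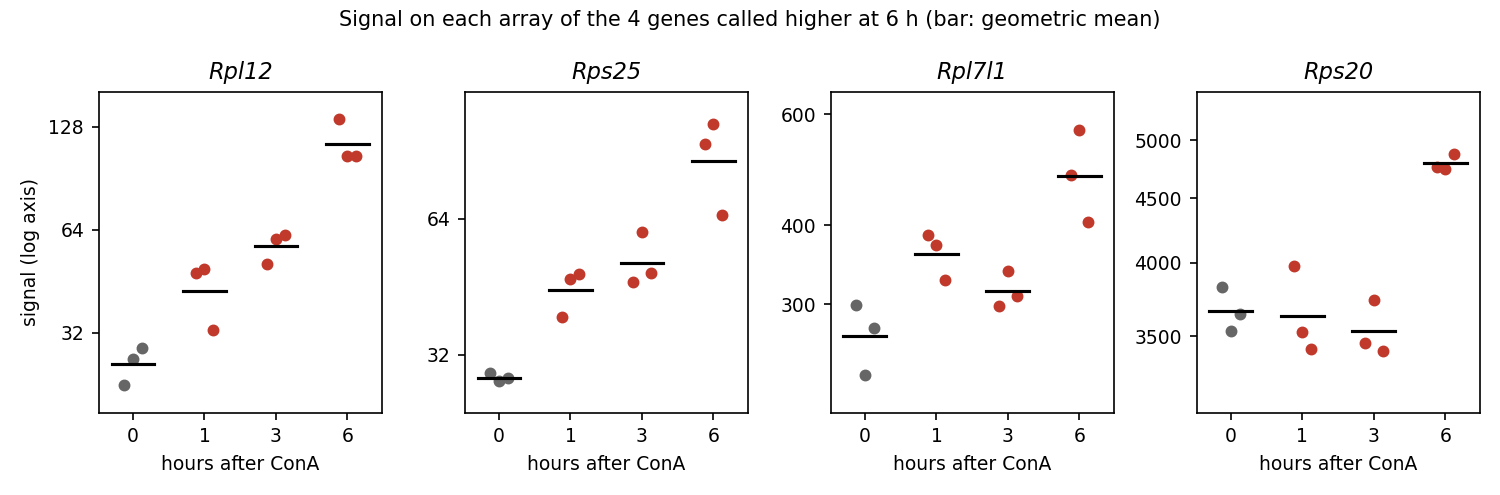
Signal of Rpl12, Rps25, Rpl7l1 and Rps20 on each array by hours after ConA, on a log axis (grey, control; red, ConA; bar, geometric mean of 3 arrays). All 4 genes are above every control array at 6 h; Rpl12 and Rps25 are so from 1 h on, at signals under 140, while Rps20 stays within 3412 and 3977 until 3 h and reaches 4749 to 4873 at 6 h.

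The rises of Rpl12 and Rps25 were part of a wider split between dim and bright probe sets. Of 107 probe sets that carry the symbol of 1 ribosomal protein gene, 64 were bright and 43 dim. At 6 h, 2 of the 64 bright ones were higher and 0 lower, and 11 of the 43 dim ones were higher and 1 lower, where 12% and 8.37% of all probe sets were called. Among the dim ones were 24 further probe sets of genes that also had a bright one, and 8 of these 24 rose, from 7 genes.

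Rpl41, which encodes the smallest ribosomal protein, showed the split most widely. One dim probe set measured 46.5, 92.1 and 60.1 at 6 h, against 13.5, 11.2 and 13.1 in the control group, and another 78.5, 99.4 and 91.5, against 9.46, 18.8 and 18.1. The groups did not overlap on either, and the rises were 5.07-fold (adjusted p = 0.000136) and 6.05-fold (adjusted p = 0.000396). The bright probe set of Rpl41 that represented the gene changed by 0.23 on the log2 scale (adjusted p = 0.184).

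Rps10 had the one probe set of the 107 that was called at 1 h, when 1.29% of all probe sets were called higher. This dim probe set measured 11.4, 7.81 and 6.10 in the control group, 22.6, 18.8 and 21.0 at 1 h, 24.6, 16.6 and 29.4 at 3 h, then 25.7, 21.6 and 31.2 at 6 h. The 3 ConA groups were all above the control arrays, by 1.34 (adjusted p = 0.0491), 1.49 (adjusted p = 0.00715) and 1.66 (adjusted p = 0.0023) on the log2 scale, while the bright probe set that represented the gene gave -0.06, -0.22 and -0.01 with none called. Another bright probe set of Rps10 was lower at 3 h (-0.67, adjusted p = 0.0317) and gave -0.49 at 6 h (adjusted p = 0.0746). Similar pairs at 6 h were Rps9 (1.35 dim, 0.16 bright), Rps24 (1.05 and 0.18) and Rps3 (0.64 and 0.09), the bright value being that of the probe set that represented the gene. Each of these genes had another dim probe set that was not called, at 0.59 (Rps9), -0.61 (Rps24) and 0.59 (Rps3). Rpl13a was less clear, with 0.35 on its called dim probe set, 0.11 on the bright one used and 0.31 on another bright one, none of the bright ones called. The called probe set of Rps18 measured 9.85, 12.9 and 12.1 at 6 h, against 0.963, 5.11 and 1.38 in the control group, where 2 of 3 arrays were under the floor of 3.04, so its size of change is not given, and the other dim probe sets of the gene gave 0.26 and -0.13. Rpl22 had probe sets that went both ways, with one dim probe set at 216, 236 and 202 at 6 h, against 305, 350 and 285 in the control group, a log2 change of -0.52 (adjusted p = 0.01), where another dim one gave 0.53 (adjusted p = 0.0588) and the bright one 0.17. The difference between probe sets of a gene was not tested, nor was the part of the transcript each one reads.

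**Figure D5:**
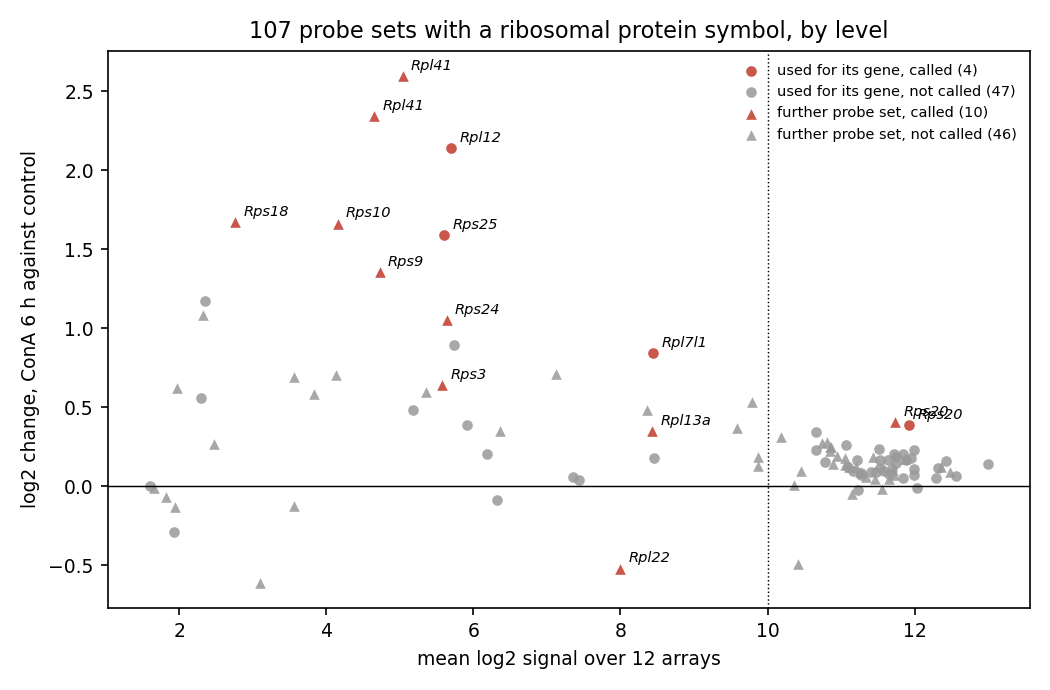
Log2 change at 6 h against control for each of the 107 probe sets with 1 ribosomal protein symbol, against its mean log2 signal over 12 arrays; red marks adjusted p under 0.05, circles the probe set used for its gene, and the dotted line the split at 10. Left of the line 12 of 43 probe sets are red, 11 of them above 0, and right of it 2 of 64, both of Rps20.

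Paralogues were examined beside the gene they resemble. Rpl22l1, the paralogue of Rpl22, measured 1878, 2344 and 2042 at 6 h, against 1527, 1593 and 1806 in the control group, without overlap, a change of 0.34 (adjusted p = 0.0726, and 0.0425 with quantile normalization). Rpl22, which is needed for the development of alpha-beta T cells, measured 3495, 3596 and 3570, against 3179, 3112 and 3196, a change of 0.17 (adjusted p = 0.223). The log2 ratio of Rpl22l1 to Rpl22 differed by 0.18 between 6 h and control (exact permutation test, two-sided, p = 0.2), and that of Rpl7l1 to Rpl7 by 0.67 (exact permutation p = 0.1, the smallest that 3 against 3 arrays allow). In all, 15 such comparisons over 5 pairs and 3 times were made, and no adjusted p was under 0.375.

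Rps27l, a paralogue of Rps27 that p53 induces, was a bright gene with a change of 0.08 at 6 h (adjusted p = 0.685), while the dim Rps27 ranged from 41.3 to 118 within the 6 h group, against 36.0 to 48.1 in the control group (0.90, adjusted p = 0.234). Rps27 is also listed on 1 probe set that carries several symbols. The signals of different probe sets therefore do not show which of these mRNAs was more abundant. Rpl39l, best known from testis, had signals of 8.90, 15.3 and 9.51 at 6 h, against 3.78, 0.295 and 9.87, which overlap near the floor (1.17, adjusted p = 0.0959). Its paralogue Rpl39 changed by 0.39 (adjusted p = 0.409). Rpl3l, a muscle paralogue, did not exceed 7.21 on any array. Rps4l spanned 75.5 to 278 over the 12 arrays and its paralogue Rps4x, brighter throughout, changed by 0.18 (adjusted p = 0.166).

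The stalk proteins, which recruit the elongation factors, were measured as Rplp0 and Rplp2. Rplp0 had signals of 2301, 2412 and 2583 at 6 h, against 2107, 1912 and 2080 in the control group, without overlap but not called (0.26, adjusted p = 0.102). Rplp2 measured 3246, 3426 and 3415, against 2768, 2810 and 3001 (0.23, adjusted p = 0.163). The laminin-binding small subunit protein Rpsa overlapped its controls at every time, with 2746, 3159 and 2918 at 6 h, against 2659, 2683 and 2921 (0.09, adjusted p = 0.645).

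Members with known roles outside the ribosome were not called against control as deposited either, though Rps7 was lower at 3 h with quantile normalization (-0.23, adjusted p = 0.0338). Rpl11, which binds and inhibits Mdm2 when ribosome assembly is disturbed, changed by 0.10 at 6 h (adjusted p = 0.628), and Rps7, another Mdm2 binder, by 0.05 (adjusted p = 0.791). Rps3, also described as a partner of NF-kappa-B, gave 0.09 (adjusted p = 0.526), and Rpl13a, part of the human GAIT complex that silences inflammatory mRNAs, 0.11 (adjusted p = 0.477). Rps19, mutated in human Diamond-Blackfan anaemia, measured 1830, 1899 and 1879 at 6 h, against 1481, 1632 and 1681 (0.23, adjusted p = 0.123). The dim Rps6, whose protein is the substrate of S6 kinase, measured 67.3, 98.0 and 96.6, against 87.5, 71.3 and 67.0 (0.20, adjusted p = 0.509). Rps6 is also listed on 9 probe sets that carry several symbols, which were kept apart, so the dim signal may not stand for the gene's level. Of the sign of these 6 changes, that of Rps7, Rps3 and Rpl13a turned with quantile normalization (-0.076, -0.0042 and -0.013).

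A few members of the symbol rule are not working ribosomal proteins. Rps19bp1 encodes a protein that binds Rps19 and changed by 0.06 at 6 h (adjusted p = 0.851), and Rps15a-ps6 is a pseudogene whose signal was at most 11.6. Rps16 was under the floor of the signals on all 12 arrays and carries no information on its gene. At the other end, Rps29 was the brightest, with 8683, 9215 and 8788 at 6 h, against 8188, 7838 and 8199 in the control group (0.14, adjusted p = 0.273).

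Genes of the machinery that assembles ribosomes passed the test more often at 6 h than the genes of the symbol rule, 4 of 51 of which did. Those 51 include Rps19bp1, Rps15a-ps6 and Rps16, and among the 4 was Rpl7l1, itself known as a maturation factor. The difference between the lists was not tested. At 6 h, 29 of 42 ribosome assembly and nucleolar factors were higher and 0 lower, with a median log2 change of 0.97, where 15.4% and 12.7% of all genes were called, and the counts were the same with quantile normalization (14.2% and 17.7%). At 3 h 14 were higher and 1 lower, against 5.15% and 14.7% of all genes, and at 1 h 2 were higher and 0 lower, against 1.5% and 0.148%. Nop58, a core protein of box C/D small nucleolar particles, measured 180, 201 and 168 at 6 h, against 32.6, 30.2 and 44.9 in the control group (5.16-fold, adjusted p = 7.5e-05), and was 4.49-fold higher at 3 h already. Heatr1, a subunit of the small subunit processome, measured 809, 959 and 814 at 6 h, against 205, 207 and 210 (4.14-fold, adjusted p = 4e-06). The E-box genes shown above, picked because they rose, changed by 1.34 (Ltv1), 1.92 (Tsr1) and 1.03 (Wdr43) on the log2 scale. Other assembly factors with the E-box included Sdad1 (1.07), Nop2 (0.87) and Utp4 (0.61), called higher, and Pes1 (0.46, adjusted p = 0.0557), not called. A link between the E-box and the change was not tested.

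Hosts of small nucleolar RNAs, which are spliced from their introns, rose in 6 of 8 cases at 6 h and fell in 0, with a median of 0.79, against 15.4% and 12.7% of all genes. Snhg3 measured 86.5, 181 and 189 at 6 h, against 30.8, 24.3 and 30.3 (5.07-fold, adjusted p = 0.000458), and Snhg1 494, 570 and 538, against 222, 207 and 210 (2.50-fold, adjusted p = 5e-05). RNA polymerase I, which transcribes the ribosomal RNA, and its factors were higher in 5 of 11 and lower in 0, with a median of 0.53, against the same shares of all genes. The largest rises there were of Polr1e (1.09) and Taf1d (0.80). The neutrophil markers, higher from 1 h on, were higher at 6 h too, and their part in the result was not tested.

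Elongation factors and other genes with the 5′ TOP start were closer to the ribosomal proteins, with 5 of 19 higher and 0 lower at 6 h (15.4% and 12.7% of all genes) and a median of 0.24, and 6 higher and 2 lower with quantile normalization (14.2% and 17.7%). The 2 largest rises were of Vim (1.29), the intermediate filament protein of mesenchymal and immune cells, and of Npm1 (0.82), a nucleolar chaperone that measured 1711, 1699 and 1510 at 6 h, against 1014, 959 and 821. At 3 h 0 of the 19 were higher and 3 lower, against 5.15% and 14.7% of all genes, and quantile normalization left 1 lower, against 9.06%. The proteins of the mitochondrial ribosome, which share no subunit with the cytosolic one, were higher in 6 of 76 and lower in 18 at 6 h, with a median of -0.13, where 15.4% and 12.7% of all genes were called, and in 7 and 29 with quantile normalization, where 14.2% and 17.7% were. Mrps18b and Mrpl3 led the rises (0.72 and 0.60), and Mrpl12 and Mrpl49 fell by 1.24 and 1.16 on the log2 scale.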

How the data were processed

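The authors deposited 1 table of linear intensities for 12 Affymetrix mouse arrays and 45101 probe sets. The sample notes name MAS5 version 5.0 and the study's methods name RMA; the values were not on a log scale and their distributions differed between arrays, so they were read as MAS5-like. Control probe sets (64) were left out. Values under the table's 20th percentile (3.04) were set to it, which held 17.5 to 23.2% of each array, and log2 was taken with no rescaling, so changes that start or end under the floor are understated. Of the rest, 34945 probe sets had 1 symbol in the platform annotation, 932 several and 9160 none, and 34741 symbols were updated through Entrez IDs. The number of arrays limits the precision.

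Groups were compared with limma 3.58.1 in R 4.3.3, in 1 fit of 4 group means over all arrays, with Benjamini-Hochberg adjusted p under 0.05 over 18193 genes (45037 probe sets where stated), after a test on simulated data. Arrays of the same replicate number did not deviate together (r of -0.01 to 0.04 over 18 pairs), so the numbers were not used as pairs. Alternatives were other scalings, a pseudocount of 1, a filter on dim genes, a variance trend, a replicate block, all probe sets and leaving out each array.

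Members and lists were chosen with earlier results of these data known. Named were the 5 largest called rises and falls at each time without overlap of arrays, paralogues with their relatives, stalk proteins, Rpsa, members known outside the ribosome, and the 2 largest changes in each direction of the other lists. Rps9, Rps10, Rps18, Rps24, Rps29, Rpl41, the genes with printed sequences and the dim probe sets were chosen after their values were seen. The limma p-values weigh a difference between group means against the spread between these samples within groups.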

Additional observations from a re-analysis of the deposited data

Results flagged for a closer look

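A difference between time points under the same treatment was flagged for the 51 ribosomal protein genes. By limma 19 of them were higher at 6 h than at 3 h and 0 lower, against 18.8% and 3.83% of all genes. After quantile normalization 5 were higher, against 9.34% of all genes, and the values of each array are given above.

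A signal outside the genes compared was found on the 110 probe sets whose several symbols include a ribosomal protein. At 6 h against control 9 of them were higher (8.18%, against 12% of all probe sets) and 0 lower, with a median log2 change of 0.13. Among the 76 bright ones 2 were higher and 0 lower, and the changes ran from -0.27 to 0.41, so the probe sets left out of the gene counts had a median near that of the bright genes (0.13).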

How the results depend on the processing

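Between scalings, the counts of genes called against control moved by at most 3, and those between ConA times by up to 18. Quantile normalization gave 1 lower at 3 h, 1 higher and 0 lower from 1 h to 3 h, and 5 higher and 1 lower from 3 h to 6 h. With all arrays scaled to the same median, 4 were higher at 3 h, 5 higher and 0 lower from 1 h to 3 h, and 1 higher and 2 lower from 3 h to 6 h. A pseudocount of 1 without a floor gave 0 lower from 1 h to 3 h and 7 higher from 3 h to 6 h, the filter on dim genes 1 higher at 1 h, and the variance trend 5 lower from 1 h to 3 h. Scaling to the brightest 5% of genes, chosen after seeing the data, gave 7 higher at 6 h, 1 higher and 0 lower from 1 h to 3 h, and 10 higher from 3 h to 6 h. Over all probe sets, 1 was higher at 1 h. The 3 h group had 5 higher and 3 lower, the 6 h group 13 higher and 1 lower, and the step from 1 h to 3 h 6 lower. The cause was not tested, except that this last setting counts several probe sets per gene.

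With the replicate block 1 gene was lower from 1 h to 3 h, and the other counts stayed within 1.5 times; the numbers do not pair the samples. Leaving out 1 array gave 0 to 1 higher at 1 h, while the 3 h group had 2 higher with 0 to 2 lower and the 6 h group had 4 to 5 higher, 0 to 7 lower from 1 h to 3 h (7 without 1 h replicate 3, 0 without 3 h replicate 3) and 5 to 25 higher from 3 h to 6 h. The 1 call at 1 h appeared without 1 h replicate 3, and the 2 lower at 3 h without 1 h replicate 1.

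Among named genes, quantile normalization turned the sign at 6 h for Rps27l (-0.0345), Rps4l (-0.0799), Rps3 (-0.00425), Rps7 (-0.0757), Rpl13a (-0.013), Rps19bp1 (-0.0581), Rps29 (-0.072), Rps18 (-0.00356) and Rpl7a (-0.0723), none of them called. Scaling to the same median did so at 6 h for Rps4l (-0.0172), Rps7 (-0.00828) and Rps19bp1 (-0.00264), and between 3 h and 6 h for Rpl22 (-0.054), Rpl7 (-0.0538), Rps4x (-0.000934), Rps3 (-0.0821) and Rps7 (-0.0559). Leaving out 1 array gave a range at 6 h of -0.49 to 0.10 for Rpl3l, -0.13 to 0.20 for Rps4l and -0.0399 to 0.15 for Rps19bp1. Dim signals near the floor limit Rps16, Rpl3l, Rpl39l and Rps15a-ps6.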
